A study of Mus musculus with 4 samples.

Results

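The interferon regulatory factors (IRFs) were followed in blood RNA of aging C57BL/6 mice given naringenin (Nar), a flavonoid, and of control mice. Of 23136 genes listed, 17823 had expression values, and the family was taken as the 8 genes Irf1, Irf2, Irf3, Irf4, Irf5, Irf7, Irf8 and Irf9, chosen by gene symbol. All 8 had values in all 4 libraries, and 7 reached the mean level of 0.5 FPKM (fragments scaled to transcript length and to the mapped fragments of the library) that was required for testing. The exception was Irf4.

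The 4 RNA-seq libraries comprised 2 from Nar-treated mice (Nar 1 and Nar 3) and 2 from controls given PBS (Ctrl 1 and Ctrl 3), each treated for 30 days. The study describes 12-month-old mice injected through the tail vein, with Nar at 20 mg/kg, while the sample labels call the mice adult. All 4 libraries came from the same strain, and no allele or other agent is named for either group. The labels do not say which animal each library came from, so the p-values measure the spread between these libraries, which may in part be technical. The number of reads behind the values is unknown and no counting error can be given.

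IRFs are transcription factors that bind DNA through a shared N-terminal domain and recognise GAAA repeats in the promoters of interferon genes and of genes that interferon induces. IRF3 and IRF7 are switched on by the kinase TBK1 after viral nucleic acid is sensed, IRF5 acts below Toll-like receptors, and IRF9 is the DNA-binding part of the complex that answers type I interferon. IRF1 activates and IRF2 mostly represses many of the same sites, and IRF4 and IRF8 work with partners such as PU.1 in lymphoid and myeloid cells.

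Haemoglobin genes made up between 92.6% and 96.4% of the summed FPKM, so the labelled tissue was borne out, and all other genes shared the remainder. The median log2 fold change (Nar minus Ctrl) of the 5339 genes tested was -1.07 on log2(FPKM + 0.1). Of these genes, 39.6% fell and 0.187% rose after Nar by a Benjamini-Hochberg adjusted p-value under 0.05 (limma). Scaling the libraries by median of ratios, which levels the typical gene, moved that median to -0.03 and left 0.356% of 5059 genes lower and 0.119% higher. The haemoglobin share was 95.1% and 92.6% in Ctrl 1 and Ctrl 3, and 95.75% and 96.4% in Nar 1 and Nar 3. A lower value in these bulk samples can mean fewer cells of a type or less RNA per cell. It can also mean that other genes took a larger share of the library. These cannot be told apart.

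Promoter letters are shown for the 3 members in which the patterns below were found and for Irf7, in which they were not. Irf1 fell furthest with Nar, Irf8 was the next lowest, Irf2 did not pass the test, and Irf7 was the most abundant and had the highest log2 fold change. Each run holds the 250 bases before the annotated start in RefSeq (GRCm38.p6), read 5′ to 3′ along the gene. Capitals mark TTCNNNGAA, the core of the gamma-activated site, and GAAANNGAAA, the core of the element bound by IRFs and by the IRF9 complex. Both strands were searched, and TTCNNNGAA reads the same on both.
Irf1, chr11:53769764-53770013, plus strand: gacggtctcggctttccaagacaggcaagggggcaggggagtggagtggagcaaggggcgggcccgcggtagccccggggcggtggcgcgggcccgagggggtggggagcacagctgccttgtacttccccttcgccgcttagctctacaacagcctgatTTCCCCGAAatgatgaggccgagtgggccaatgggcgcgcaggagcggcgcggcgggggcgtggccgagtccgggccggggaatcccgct
Irf8, chr8:120736108-120736357, plus strand: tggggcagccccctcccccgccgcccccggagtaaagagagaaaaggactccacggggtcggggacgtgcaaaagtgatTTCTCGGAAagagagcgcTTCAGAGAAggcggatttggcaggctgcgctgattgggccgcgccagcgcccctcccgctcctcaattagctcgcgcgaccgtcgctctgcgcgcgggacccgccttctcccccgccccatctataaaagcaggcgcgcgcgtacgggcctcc
Irf2, chr8:46739495-46739744, plus strand: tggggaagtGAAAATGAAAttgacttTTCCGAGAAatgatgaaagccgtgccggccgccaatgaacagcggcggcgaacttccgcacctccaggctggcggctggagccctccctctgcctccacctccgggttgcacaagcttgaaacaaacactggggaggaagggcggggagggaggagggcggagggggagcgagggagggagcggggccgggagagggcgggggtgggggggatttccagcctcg
Irf7, chr7:141266425-141266674, minus strand: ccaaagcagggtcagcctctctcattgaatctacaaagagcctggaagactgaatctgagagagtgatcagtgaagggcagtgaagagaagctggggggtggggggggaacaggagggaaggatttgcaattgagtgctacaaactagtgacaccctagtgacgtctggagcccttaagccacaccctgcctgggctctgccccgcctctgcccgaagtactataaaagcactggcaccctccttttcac

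The 8 members had 11 windows in all, 2 each for Irf1, Irf8 and Irf9, and for these 3 the first is the one described. TTCNNNGAA was found in 3 of the 11, 1 each of Irf1, Irf2 and Irf8, and in 7.02% of all 32851 promoter windows. In Irf1 it read TTCCCCGAA and began 90 bases before the start. Irf8 held 2 copies, TTCTCGGAA and TTCAGAGAA, and Irf2 held TTCCGAGAA. GAAANNGAAA was found in 1 of the 11, that of Irf2, as GAAAATGAAA, and in 2.98% of all windows. The Irf7 window held neither pattern, and the gene's annotated span reaches into it from a further start. No match was found in the windows of Irf3, Irf4, Irf5 and Irf9, and the Irf5 window lies within the gene's annotated span, past its first start. These are matches of letters and do not show binding.

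Irf3 and Irf7, the factors that start interferon production, gave unlike pictures, in that Irf3 passed the test and Irf7 did not. The difference between their responses was not tested. Irf3 (NCBI Gene 54131, chr7:44997648-45002848), which is made in most cells and activated by phosphorylation, was at 1.43 and 1.1 FPKM in Ctrl 1 and Ctrl 3, and 0.43 and 0.43 in Nar 1 and Nar 3. The groups did not overlap, with Nar the lower. Its mean was 1.27 ± 0.233 FPKM (SD, n = 2) in controls and 0.43 with Nar, where the libraries were equal at the deposited 2 decimals. The log2 fold change was -1.35 (standard error 0.354, limma adjusted p = 0.0241). Irf3 reached the level of 0.5 FPKM required for testing only through its control values, which limits this call.

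Irf7 (NCBI Gene 54123, chr7:141263183-141266499), the interferon-inducible factor that amplifies the type I response, was the most abundant member in every library. It was at 18.4 and 78.5 FPKM in Ctrl 1 and Ctrl 3, and 37.8 and 39.7 in Nar 1 and Nar 3. The control libraries bracketed the Nar libraries, and Ctrl 3 was 4.27 times Ctrl 1. Only 1.5% of tested genes had a ratio between the control libraries as high. The control mean was 48.4 ± 42.5 FPKM and the Nar mean 38.8 ± 1.38 FPKM (SD, n = 2 each). The log2 fold change was 0.03, with a 95% interval from -1.54 to 1.60 (limma adjusted p = 0.973). After median-of-ratios scaling it was 1.13, and with haemoglobin genes removed 0.589 (limma adjusted p = 0.607 and 0.421). The data therefore do not settle whether Irf7 changed in either direction. Without Ctrl 1 the log2 fold change was -1.02, and without Ctrl 3 it was 1.07, neither of which passed the test (adjusted p = 0.106 and 0.126). Of all tested genes, 6.01% had a higher log2 fold change than Irf7.

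Irf5 (NCBI Gene 27056, chr6:29526130-29541869), a factor of inflammatory cytokine genes in phagocytes, followed Irf3 closely. Its levels were 3.29 and 2.35 FPKM in Ctrl 1 and Ctrl 3, and 1.11 and 1.06 in Nar 1 and Nar 3. The groups did not overlap, and the log2 fold change was -1.28 (standard error 0.373, limma adjusted p = 0.0308). Irf9 (NCBI Gene 16391, chr14:55603985-55610030), the DNA-binding part of the type I interferon complex, was at 1.98 and 1.68 FPKM in Ctrl 1 and Ctrl 3 and at 0.79 in both Nar libraries. Its log2 fold change was -1.11 (standard error 0.34, limma adjusted p = 0.0348), and without the trend in limma the adjusted p was 0.0507. The fold change is close to the median of all tested genes.

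Irf1 showed the steepest difference of the family. Irf1 (NCBI Gene 16362, chr11:53770014-53778374), an activator induced by interferon-gamma and inflammatory signals, was at 6.5 and 8.85 FPKM in Ctrl 1 and Ctrl 3, and 0.96 and 0.6 in Nar 1 and Nar 3. The lowest control value was well above the highest Nar value. The mean fell from 7.68 ± 1.66 to 0.78 ± 0.255 FPKM (SD, n = 2 each), which was 9.84-fold lower with Nar. The log2 fold change was -3.16 (standard error 0.42, 95% interval -4.11 to -2.21, limma adjusted p = 0.00427), and 1.24% of tested genes had a lower one. After median-of-ratios scaling it was -2.11 (adjusted p = 0.0798, unadjusted p = 0.00064).

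Irf2 (NCBI Gene 16363, chr8:46739745-46847458), which competes with IRF1 for the same sites, did not pass the test. Its levels were 3.57 and 1.93 FPKM in Ctrl 1 and Ctrl 3, and 1.8 and 1.13 in Nar 1 and Nar 3. The groups did not overlap, but Ctrl 3 and Nar 1 were nearly level. The log2 fold change was -0.84 (95% interval -1.83 to 0.16, limma adjusted p = 0.133), and after median-of-ratios scaling its sign turned to 0.22 (adjusted p = 0.944). It was -0.41 without Ctrl 1, -1.26 without Ctrl 3 and -0.52 without Nar 3. The ratio of Irf1 to Irf2, which does not depend on the scaling of a library, was 1.82 and 4.59 in Ctrl 1 and Ctrl 3, and 0.533 and 0.531 in Nar 1 and Nar 3. Irf1 thus exceeded Irf2 in both controls and was below it in both Nar libraries. With 2 libraries against 2, the smallest two-sided p of an exact permutation test is 0.33, and this ratio was chosen after its values were seen.

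Irf8 and Irf4, the members found mostly in blood lineages, differed in level. Irf8 (NCBI Gene 15900, chr8:120736358-120756694), needed for monocyte and dendritic cell development, was at 3.7 and 2.66 FPKM in Ctrl 1 and Ctrl 3, and 1.46 and 0.81 in Nar 1 and Nar 3. The groups did not overlap, and the log2 fold change was -1.44 (standard error 0.418, limma adjusted p = 0.0308). Irf4 (NCBI Gene 16364, chr13:30749233-30766981), a factor of activated lymphocytes and plasma cells, was low throughout, at 0.3 and 0.37 FPKM in Ctrl 1 and Ctrl 3, and 0.27 and 0.31 in Nar 1 and Nar 3. The groups overlapped and the difference was -0.15 on the log2 scale, with no test since the mean was 0.313 FPKM. Its sign turned to 0.274 with haemoglobin genes removed and to 0.683 after median-of-ratios scaling. The ratio of Irf8 to Irf4 was 12.3 and 7.19 in Ctrl 1 and Ctrl 3, and 5.41 and 2.61 in Nar 1 and Nar 3.

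**Figure D1:**
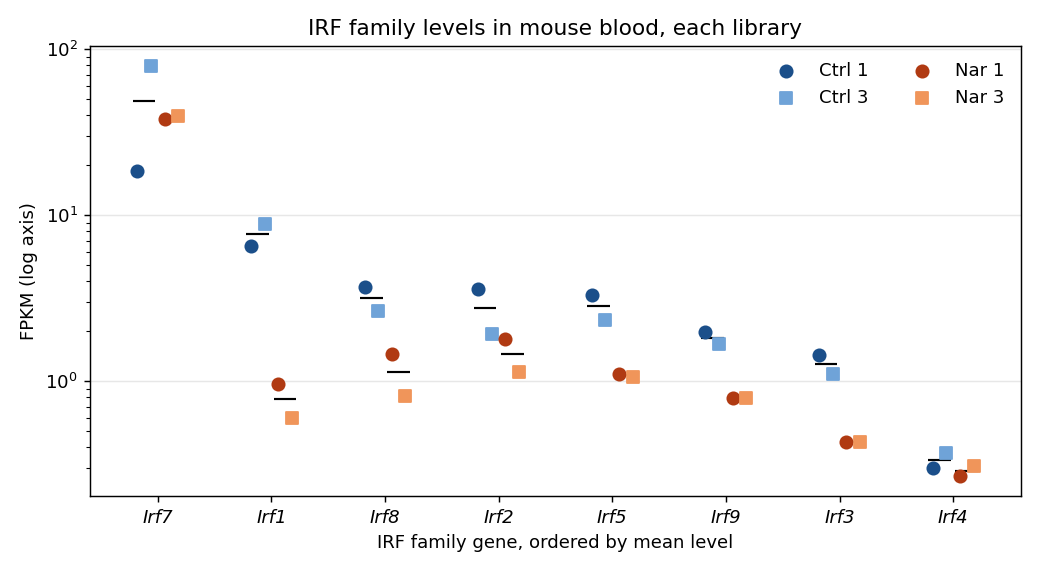
FPKM of the 8 IRF genes on a log axis, ordered by mean level, with 1 point per library (blue Ctrl, orange Nar, circles for number 1 and squares for number 3) and black bars for the means of 2 libraries. Irf7 has its Nar points between its control points, and Irf1 has the widest gap, from 6.5 and 8.85 in controls to 0.96 and 0.6 with Nar.

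Of the 7 members tested, 5 were called lower with Nar (Irf1, Irf3, Irf5, Irf8 and Irf9), where 39.6% of all tested genes were, and 0 were called higher. In 6 of the 7 the higher Nar value was under the lower control value, as it was for 78.3% of all tested genes. With median-of-ratios scaling this held for 2 members, and the share of all tested genes on that scale was not computed. The median log2 fold change over all 8 members was -1.20, against -1.07 for the tested genes together. With the libraries scaled by median of ratios 0 of 7 members were called, 1 had an unadjusted p under 0.05 (Irf1), and the family's median was -0.16. On that scale Irf3 was at -0.38, Irf5 at -0.23, Irf8 at -0.40 and Irf9 at -0.09 (limma adjusted p from 0.757 to 0.979). Above 0 were Irf2 at 0.22, Irf7 at 1.13 (limma adjusted p = 0.944 and 0.607) and Irf4 at 0.68, with no test. Without Ctrl 1 or without Ctrl 3, 0 members were called (4 and 5 at an unadjusted limma p under 0.05), and without Nar 1 or Nar 3 only Irf1 was.

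**Figure D2:**
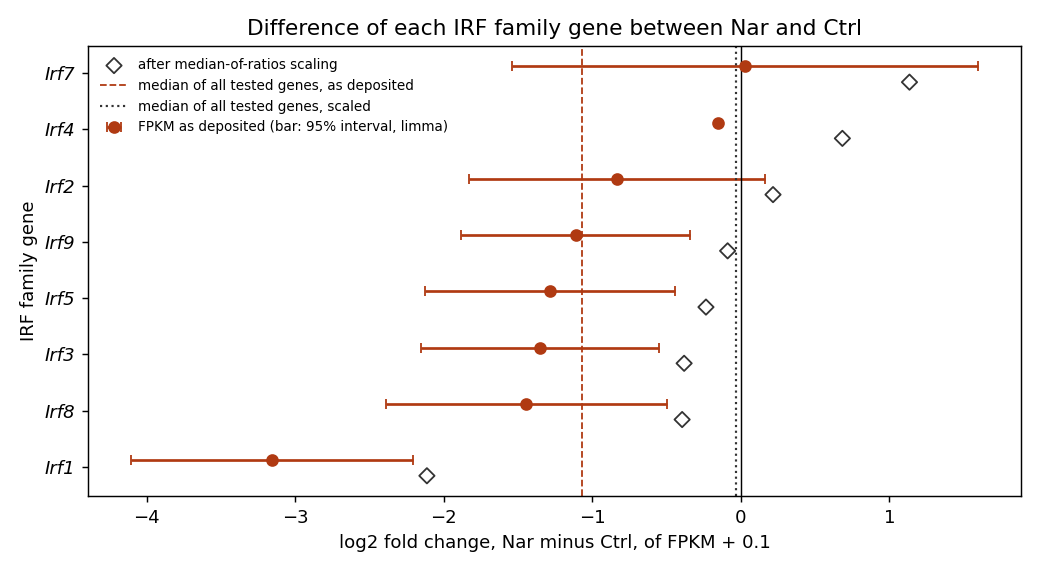
log2 fold change (Nar minus Ctrl) of each IRF gene on log2(FPKM + 0.1), as deposited (filled, with the 95% interval from limma, none for the untested Irf4) and after median-of-ratios scaling (open diamonds). The dashed and dotted lines mark the medians of all tested genes at -1.07 and -0.03. Irf1 lies below both lines on either scale, and Irf7 above both.

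FPKM is set per length, so levels can be ranked between members. In controls the order was Irf7, Irf1, Irf8, Irf5, Irf2, Irf9, Irf3 and Irf4. The means of Irf8, Irf5, Irf2 and Irf9 were 3.18 ± 0.735, 2.82 ± 0.665, 2.75 ± 1.16 and 1.83 ± 0.212 FPKM (SD, n = 2 each). These SDs are between libraries and do not measure differences between genes of the same library. In both control libraries Irf8 was above Irf5 and Irf2, and Irf2 was above Irf9. Irf5 and Irf2 changed places between Ctrl 1 and Ctrl 3. With Nar, Irf1 stood in the sixth place, at 0.78 FPKM beside Irf9 at 0.79, while Irf2 came second at 1.47 ± 0.474 FPKM. Irf8 was at 1.14 ± 0.46 and Irf5 at 1.09 ± 0.0354 FPKM (SD, n = 2 each), and Irf2 was above both in each Nar library. Irf8 and Irf5 changed places between Nar 1 and Nar 3. Irf3 and Irf4 kept the lowest places in both groups.

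The summed FPKM of the family was 39.2 and 97.4 in Ctrl 1 and Ctrl 3, and 44.6 and 44.9 in Nar 1 and Nar 3. Irf7 took 47.0% and 80.6% of that sum in Ctrl 1 and Ctrl 3, and 84.7% and 88.6% in Nar 1 and Nar 3. The Irf1 share was 16.6% in Ctrl 1 and 9.08% in Ctrl 3, against 2.15% in Nar 1 and 1.34% in Nar 3. The ratio of Irf7 to Irf1 was 2.83 and 8.87 in Ctrl 1 and Ctrl 3 and 39.4 and 66.2 in Nar 1 and Nar 3. These shares hold under any scaling of whole libraries, and their smallest possible exact permutation p is again 0.33.

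**Figure D3:**
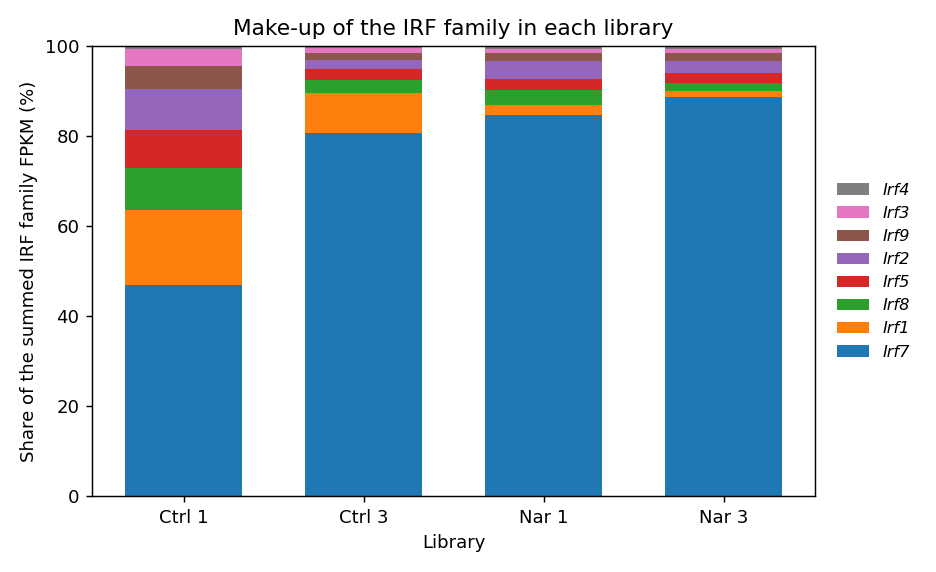
Share of each IRF gene in the summed FPKM of the 8 genes, in percent, 1 bar per library. Irf7 (blue) fills 47.0% of the bar in Ctrl 1 and 80.6% or more in the other libraries, and the Irf1 part (orange) is below 2.2% in both Nar libraries.

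The profiles over the 4 libraries were compared by the root mean square distance between log2(FPKM + 0.1) values after each gene's own mean was subtracted. Irf3 and Irf5 were the closest pair at 0.0591, followed by Irf5 with Irf9 at 0.123 and Irf3 with Irf9 at 0.129. Irf1 and Irf7 were the furthest apart at 1.71. The profile shared by Irf3, Irf5 and Irf9 was common in the table, with 1048, 1036 and 1282 of the other 5338 tested genes within a distance of 0.25. Only 7 genes came that close to Irf1 and 18 to Irf7, against 469 for Irf8 and 329 for Irf2.

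The nearest profiles to Irf1 were those of Lamtor4 (0.124) and Ets2 (0.132). The nearest to Irf7 were Memo1 (0.0602) and Ppp2r5b (0.0732). Memo1 was at 13.2 and 50.3 FPKM in Ctrl 1 and Ctrl 3, and 26.4 and 27.5 in Nar 1 and Nar 3, the same order of libraries as Irf7. Irf2 was nearest to Slx4ip (0.0488) and Tmx3 (0.0537), and Irf8 to Pdlim5 (0.0309) and Actr2 (0.0369). Irf3 was nearest to Kmt2e (0.0222) and Gtf3c2 (0.0341), Irf5 to Cmtm7 (0.00873) and Vps35 (0.0319), and Irf9 to Bub3 (0.0156) and Cnot10 (0.0158). With 4 libraries such likeness is a description only.

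Markers of blood cell types were measured beside the family, and their counts stand against 39.6% of all tested genes called lower and 0.187% called higher. Neutrophil markers, among them granule genes such as Ngp and Camp, were called lower in 11 of 11 tested genes, with a median log2 fold change of -3.77 (3 of 11 and -2.66 after median-of-ratios scaling). Their summed level ran from 1436 to 1737 FPKM in controls and from 105 to 164 FPKM with Nar. Monocyte markers were called lower in 4 of 8 (median -1.66), and after median-of-ratios scaling 0 of 7 were called (median -0.67). Their sums were 359 to 413 FPKM in controls and 97.4 to 142 FPKM with Nar. Most of each sum was Lyz2, at 295 and 373 FPKM in Ctrl 1 and Ctrl 3, and 131 and 92.6 in Nar 1 and Nar 3. Cx3cr1 and Ace overlapped between the groups. Csf1r fell from 6.42 FPKM in Ctrl 1 to 2.47 in Ctrl 3, so the sum does not show how single markers ran. NK cell markers were called lower in 1 of 5 (median -1.30), with sums of 15.9 to 16.1 FPKM and 3.21 to 7.22 FPKM, and Klre1 was listed at 0 in Nar 3. After that scaling 0 of 5 were called (median -0.38).

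Of the lymphocyte markers, limma called 0 of 8 B cell genes (median -0.28, 0 at an unadjusted p under 0.05) and 0 of 7 T cell genes (median -0.75, 2 at an unadjusted p under 0.05). The B cell sum ran from 30.1 to 40.9 FPKM in controls and from 30.3 to 30.8 FPKM with Nar, and the T cell sum from 7.44 to 9.84 FPKM and from 4.48 to 6.39 FPKM. Dendritic cell markers were low, with 2 of 8 tested and 1 called lower (Bst2), and Zbtb46, Siglech and Clec9a each at 0 in at least 1 library. Their sums were 8.62 to 8.63 FPKM in controls and 4.54 to 6.94 FPKM with Nar. Most of each sum was Ly6d and Bst2. Ly6d was at 5.64 and 4.53 FPKM in Ctrl 1 and Ctrl 3, and 5.44 and 3.2 in Nar 1 and Nar 3. The sum thus says little about the markers too low to test. Platelet markers were called in 0 of 7 (median -1.11, 1 at an unadjusted limma p under 0.05), and their sum was 681 and 2152 FPKM in Ctrl 1 and Ctrl 3, and 574 and 442 in Nar 1 and Nar 3. Erythroid markers other than haemoglobin were called in 0 of 13 (median 0.37, 0 at an unadjusted limma p under 0.05), with sums of 8953 to 10880 FPKM in controls and 10070 to 10930 FPKM with Nar. After median-of-ratios scaling the medians were 0.75 for B cell, 0.23 for T cell, 0.14 for dendritic cell, 0.0013 for platelet and 1.48 for erythroid markers, and 0 of these genes were called by limma. Of 10 haemoglobin genes tested, 2 were called higher, and 4 of 9 after median-of-ratios scaling.

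Set beside these lists, the log2 fold change of Irf1 (-3.16) was nearest the neutrophil median, those of Irf8, Irf3, Irf5 and Irf9 (-1.44 to -1.11) lay among the NK cell, platelet and monocyte medians, and that of Irf7 (0.03) between the B cell and erythroid medians. The part of cell make-up in the members' differences was not tested. Irf7 shared with most platelet and erythroid genes a Ctrl 3 value above Ctrl 1. This held for 7 of 7 platelet and 12 of 13 erythroid genes tested, 0 of 8 B cell genes, 2 of 11 neutrophil genes and 56.6% of all tested genes.

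The pan-leukocyte gene Ptprc (CD45) was at 18.1 and 9.29 FPKM in Ctrl 1 and Ctrl 3, and 4.81 and 2.49 in Nar 1 and Nar 3. Its own log2 fold change was -1.875, below the median of -1.07 for all tested genes. A gene at that median is therefore higher per Ptprc with Nar. The share of all tested genes whose groups separate on this ratio was not computed. Per unit of Ptprc, Irf1 was 0.359 and 0.953 in Ctrl 1 and Ctrl 3 and 0.2 and 0.241 in Nar 1 and Nar 3, so both Nar libraries were still below both controls. Irf2 per Ptprc was 0.197 and 0.208 in controls and 0.374 and 0.454 with Nar, in the opposite order. Irf8 per Ptprc was 0.204 and 0.286 in controls and 0.304 and 0.325 with Nar. Irf4 per Ptprc was 0.0166 and 0.0398 in controls and 0.0561 and 0.125 with Nar. For Irf3, Irf5, Irf7 and Irf9 this ratio overlapped between the groups.

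The counts of pathway genes below stand against 39.6% of all tested genes called lower, with a median of -1.07, and against 78.3% with both Nar values under both control values. Some genes named below as called had a Nar mean under 0.5 FPKM and were tested only through their control values. These were Ifi204, Tbk1, Stat2, Ifnar1, Batf, Irf2bp2, Casp1, Oas2 and Ifit3. Above the IRFs stand nucleic acid sensors, adaptors and kinases. Of the 23 such genes with values, 12 were tested, 9 were called lower and 0 higher, with a median log2 fold change of -1.30, and 0 of 11 were called after median-of-ratios scaling. The lowest were Zbp1, a sensor of Z-form nucleic acid, at -2.53 (limma adjusted p = 0.00654), and Ifi204, a DNA sensor of the interferon-inducible p200 family, at -2.33 (adjusted p = 0.00876). Tbk1, the kinase of IRF3 and IRF7, was at 0.95 and 1.13 FPKM in Ctrl 1 and Ctrl 3 and 0.32 and 0.33 in Nar 1 and Nar 3 (log2 fold change -1.42, adjusted p = 0.0243). The highest was Irak1, a kinase below Toll-like receptors, at -0.58 (adjusted p = 0.222).

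Interferon receptors and their JAK-STAT partners gave 6 of 10 tested genes lower and 0 higher (median -1.45), and 0 of 10 after median-of-ratios scaling. Stat2, the partner of IRF9, was the lowest, from 1.5 and 1.47 FPKM in Ctrl 1 and Ctrl 3 to 0.32 and 0.18 in Nar 1 and Nar 3 (log2 fold change -2.21, limma adjusted p = 0.00774). Ifngr1, a chain of the interferon-gamma receptor, was next at -1.74 (adjusted p = 0.023). The type I receptor chains gave different values, with Ifnar1 at -1.45 (adjusted p = 0.0326) and Ifnar2, the highest of the list, at -0.54 (adjusted p = 0.358). Of 9 interferon ligand genes only Ifng had values, at 0.25 and 0.62 FPKM in Ctrl 1 and Ctrl 3 and 0.04 and 0.07 in Nar 1 and Nar 3, too low to be tested, and the other listed ligands were blank.

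Among DNA-binding partners of IRF4 and IRF8, 4 of 7 tested genes were lower and 0 higher (median -1.15), and after median-of-ratios scaling 0 of 6 were called (median 0.19). Spi1, which encodes PU.1, fell from 18.9 and 16.2 FPKM in Ctrl 1 and Ctrl 3 to 2.28 and 2.63 in Nar 1 and Nar 3 (log2 fold change -2.79, limma adjusted p = 0.00609). Batf, an AP-1 factor that pairs with IRF4 in lymphocytes, had a log2 fold change of -1.81 (adjusted p = 0.0176). Spib, the B cell relative of PU.1, was the highest at 0.37 (adjusted p = 0.473). Corepressors and turnover factors of IRFs gave 2 of 4 lower (median -1.15), or 0 of 4 after that scaling (median -0.10). Those called as deposited were Irf2bp2 at -1.31 and Sharpin at -1.23, with Otud5 the highest at 0.05 (limma adjusted p = 0.0329, 0.0293 and 0.93).

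Genes that IRF1 and IRF2 are known to regulate were called lower in 12 of 13 tested genes, with 0 higher and a median log2 fold change of -1.79, and after median-of-ratios scaling in 1 of 12 (median -0.71). The lowest was Gbp2, a guanylate-binding GTPase, from 9.18 and 8.66 FPKM in Ctrl 1 and Ctrl 3 to 0.85 and 0.49 in Nar 1 and Nar 3 (log2 fold change -3.59, limma adjusted p = 0.00297). Casp1, the inflammasome protease, followed at -2.25 (adjusted p = 0.00554). The highest was Ciita, the class II MHC coactivator, at -0.68 (adjusted p = 0.187). Psmb8 was listed at 0 in all 4 libraries.

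Interferon-stimulated genes with IRF binding elements came next. Of 19 tested genes 10 were called lower and 0 higher (median -1.20), which compares with 39.6% of all tested genes. In 13 of the 19 both Nar values were under both control values, beside 78.3% of all tested genes, and in 6 the groups overlapped. After median-of-ratios scaling 1 of 18 was called (median -0.10). Oas2 was the lowest, from 2.65 and 2.22 FPKM in Ctrl 1 and Ctrl 3 to 0.14 and 0.11 in Nar 1 and Nar 3 (log2 fold change -3.49, limma adjusted p = 0.00238), and Ifit3 was next at -2.41 (adjusted p = 0.00554). Rsad2, which encodes viperin, was the highest at 0.39 (adjusted p = 0.495), with 93.0 and 158 FPKM in Ctrl 1 and Ctrl 3 and 169 and 150 in Nar 1 and Nar 3. Isg15, a ubiquitin-like modifier named here after its values were seen, was at 51.7 and 115 FPKM in controls and 90.9 and 76.0 with Nar, bracketed by its controls as Irf7 was. In this list 15 of 19 tested genes were higher in Ctrl 3 than in Ctrl 1. The Oas, Ifit and Gbp genes have close paralogs, and reads may have been divided among these, so their values are uncertain.

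Genes that IRF4 or IRF8 act on gave 4 of 10 lower and 0 higher (median -1.33), which is near the 39.6% of all tested genes, and 0 of 10 after median-of-ratios scaling (median -0.25). Cd274, which encodes PD-L1, was the lowest at -2.22 (limma adjusted p = 0.0104) and Ccr2, the monocyte chemokine receptor, was next at -2.08 (adjusted p = 0.0354). Bcl2l1 was the highest at 0.12 (adjusted p = 0.858). None of the 5 IRF5-dependent cytokine and receptor genes with values reached the level for testing, Tnf and Il6 among them. Over all these lists, 47 of 75 tested pathway genes were called lower and 0 higher, beside 39.6% of all tested genes lower and 0.187% higher. After median-of-ratios scaling 2 of 71 were lower and 0 higher, Gbp2 at -2.55 (adjusted p = 0.0398) and Oas2 at -2.63 (adjusted p = 0.0342).

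**Figure D4:**
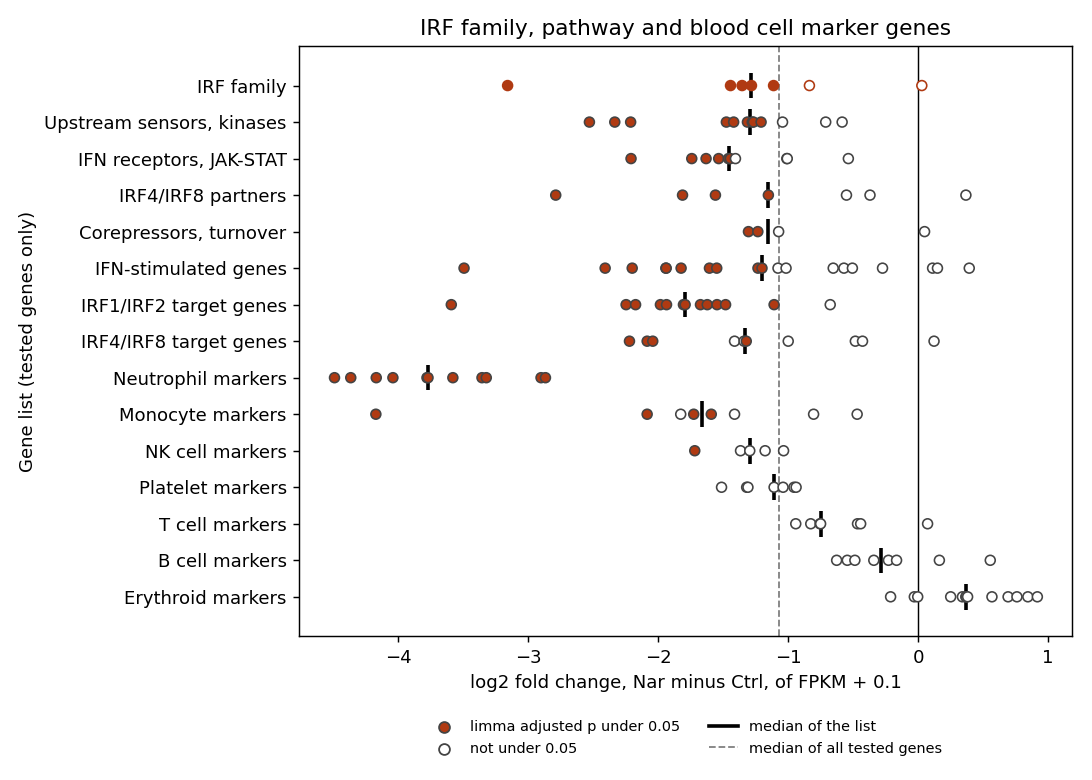
log2 fold change (Nar minus Ctrl) of each tested gene on log2(FPKM + 0.1), by list, filled where the limma adjusted p was under 0.05, with a black bar at the list's median and a dashed line at the median of all tested genes (-1.07). The IRF family runs from -3.16 (Irf1) to 0.03 (Irf7), with a median of -1.28 over its 7 tested genes. Neutrophil markers lie furthest to the left and erythroid markers furthest to the right.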

How the data were processed

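Blood RNA was sequenced after poly(A) selection in 2 Ctrl and 2 Nar libraries. The values deposited by the authors are FPKM with 2 decimals, 1 per gene and library. Their methods name bowtie-2 alignment to reference gene sequences, while the submitters' processing notes name TopHat2, Cufflinks and GRCm38. The annotation is not given in the sources used here. Columns were matched to libraries by title, and 0 were left over. The 5313 genes with blank entries were dropped. Depth is unknown.

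Groups came from the titles. Differences were computed on log2(FPKM + 0.1), which understates changes of low genes, for the 5339 genes whose mean FPKM reached 0.5, with limma 3.58.1 (lmFit, eBayes with trend) in R 4.3.3, two-sided, and Benjamini-Hochberg adjustment over all of them. DEGseq, the method of the study, needs read numbers and was not used. The steps were tested on simulated data. The members and gene lists were chosen with earlier results of these data known. Of 26 names in the list of sensors and kinases, 23 were listed in the table, and the rest are other symbols of listed genes. Trac and Ahsp were not analysed here. Ifih1 and Tlr9 stand in 2 pathway lists each and were counted once in the total, and Bst2, Csf1r and Ccr2 are in a pathway and a marker list.

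Named genes were all members, the 2 lowest and the highest log2 fold change of each pathway list, defining genes of lists, and the 2 nearest profiles of each tested member. Tbk1, Ifnar1 and the ratios between members were chosen after their values were seen. Promoters (RefSeq, GRCm38.p6) were found for 8 of 8 members. Alternatives are given in the closing section. Plots were drawn with matplotlib 3.10.9.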

Additional observations from a re-analysis of the deposited data

How the results depend on the processing

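Most calls depended on the filter, the scaling and the libraries included. Without the filter on low values, limma called 0 of 16382 genes, 0 of 8 members and 0 of 108 pathway genes (4978, 5 and 64 at an unadjusted p under 0.05). When the mean FPKM had to reach 5, it called 117 genes, 3 pathway genes and 0 members, since Irf7 alone reached that level. With haemoglobin genes removed and each library rescaled without them, the counts were 283 genes, 10 pathway genes and 1 member (Irf1), and the family's median log2 fold change was -0.68. With median-of-ratios scaling they were 24, 2 and 0, the family's median was -0.16, and Irf2 turned to 0.217. Irf4 turned to 0.683 with that scaling and to 0.274 without haemoglobin genes. A pseudocount of 1 moved the family's median to -0.66, which its construction brings about for low genes. With TPM values Irf7 was -0.0308.

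Leaving out each library in turn gave 0 to 259 genes, 0 to 12 pathway genes and 0 to 1 members called, where the lone library was assumed to vary like the other group, and log2 fold changes of -1.02 to 1.07 for Irf7. The causes of these changes were not tested. Over the alternatives, the log2 fold change of Irf1 ran from -3.46 to -2.11 and kept its sign, with adjusted p from 0.000895 to 0.113. Those of Irf3, Irf5, Irf8 and Irf9 also stayed below 0.

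The groups share the numbers 1 and 3 in the labels only. Deviations of same-numbered libraries correlated at -0.153 across genes. With the replicate block 1815 genes, 41 pathway genes and 4 members were called, Irf9 being lost at an adjusted p of 0.0525. Without the trend in limma, 1790 genes, 39 pathway genes and 4 members were called, and Irf9 was lost there too (adjusted p = 0.0507). With the crossed replicate block, an alternative chosen after seeing the data, 3233 genes and 5 members were called. Unknown depth limits Irf4 and other low genes most.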
